A study of Mus musculus with 4 samples.

Results

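The genes described here build and anchor the actin cytoskeleton. They are 43 of the 16051 genes in the deposited table, chosen by symbol for their known roles, and were read as 15 contractile genes, 14 actins and actin-binding genes, 13 adhesion and LIM-domain genes and Srf, the transcription factor that many of them share as a regulator. All 43 were listed in the table, and 39 had a mean of at least 1 FPKM (fragments per kilobase of transcript, scaled to the mapped fragments of the library) over the 4 libraries and were tested. Tagln, Cnn1, Mylk and Fhl1 were below that level.

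The cells were 3T3-L1, a mouse fibroblast line of NIH Swiss origin that turns into adipocytes when given isobutyl-methylxanthine, dexamethasone and insulin, which all cultures here had received. The differentiated cells were then treated for 48 h with risperidone, an antipsychotic drug, or with its solvent dimethyl sulfoxide (DMSO), and the study names 100 μM as its working dose. There were 2 libraries per treatment, each made from the pooled RNA of 3 cultures, so p-values measure the spread between pools rather than cultures. In the labels the control is called untreated, the tissue embryonic and the extracted material retina, and the study's methods, which name DMSO and cultured cells, were followed.

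Actin filaments are crosslinked and pulled by myosin into stress fibres, which end at focal adhesions, the plaques where integrins hold the cell to its matrix. Precursors of fat cells are spread and rich in stress fibres, and they lose these and round up as they fill with lipid. SRF reads the state of actin through its MRTF cofactors, which are held by free actin monomers, and switches on genes that carry a CArG box, its binding motif.

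The libraries held between 15883712 and 16374119 estimated counts. In them 3 counts, the limit that a count of 0 allows, stood for 0.183 to 0.189 CPM (counts scaled to the library total), for counting error only. Of 12 adipocyte markers, 7 averaged under 1 FPKM (Adipoq, Plin1, Cidec, Cebpa, Retn, Cfd and Slc2a4), so the labelled adipocyte state rested on Fabp4, Lpl, Pparg, Lipe and Pnpla2, of which 3 were lower and 1 was higher with risperidone. The summed level of the adipocyte list was 440 and 497 FPKM with DMSO and 331 and 340.0 FPKM with risperidone. Of 8 preadipocyte and fibroblast markers, 4 were higher and 2 lower, and their summed level was 1512 and 1465 FPKM against 1728 and 1726 FPKM. Dlk1 measured 30.4 and 32.9 against 81.7 and 83.3 FPKM and Col1a1 379.8 and 368 against 715 and 674 FPKM, while Col1a2, the most abundant, was lower at 1029 and 992 against 833 and 865 FPKM, as was Pdgfrb at 21.8 and 20.2 against 13.1 and 14.6 FPKM. The 5 retina markers examined were all under 1 FPKM on average, but Crx, a transcription factor of photoreceptors, had 1 and 2 counts with DMSO and 41 and 35 with risperidone, and with no filter on low values it was called higher (adjusted p = 0.00150, edgeR quasi-likelihood F-test, Benjamini-Hochberg adjusted). Kidney markers summed to 1.61 to 2.65 FPKM in 3 libraries and to 189 FPKM in risperidone replicate 2. Some results are therefore also given without that library, though not every list count that changed. The part of these markers in the results below was not tested, and fewer cells of a type cannot be told apart from less RNA per cell.

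Of the 39 tested genes, 24 were higher and 7 were lower with risperidone at an adjusted p under 0.05 (quasi-likelihood F-test of edgeR, adjusted by Benjamini-Hochberg over 10243 genes). The same test called 32.1% of all tested genes higher and 32.2% lower, 64.3% in either direction, so a call by itself was common. The median log2 fold change of the 39 genes was 0.26, against 0.00 for all genes tested. The 28 members with a mean of at least 50 FPKM were 17 higher and 6 lower, and of all 1652 genes at that level 75.7% were called, 53.3% higher and 22.3% lower, a split that already leaned upward among strongly expressed genes. CPM did not overlap between the treatments for 26 members that were higher and 9 that were lower, where 82.9% of all tested genes did not overlap, 41.2% and 41.7% in those directions.

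The adjusted p of the 24 higher genes ran from 3.37e-08 for Acta2 to 0.0287 for Zyx, and that of the 7 lower genes from 2.55e-06 for Pfn1 to 0.000265 for Csrp1, while the 8 members not called lay between 0.0733 (Pxn) and 0.883 (Ptk2) (edgeR quasi-likelihood F-test, Benjamini-Hochberg adjusted). Most of the changes were small. Called members that differed by 0.5 or more on the log2 scale were 10 higher and 3 lower ones, where 12.4% and 15.3% of all tested genes did so. Acta2 and Fhl2 alone among the tested members differed by 1 or more, both higher, beside 2.61% of all tested genes higher and 3.91% lower by that much. With each library left out in turn, 21 of the 24 higher genes and all 7 lower genes stayed called, and without risperidone replicate 2 the counts were 22 and 7.

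The split of directions depended on how the libraries were scaled. Scaling to TPM, which gives every library the same sum of levels per length, tested with limma on log2(TPM + 1), moved the median log2 fold change of all tested genes to -0.22, called 15.0% of them higher and 51.7% lower, and turned the split of the members into 14 higher and 15 lower. The 8 members not called with TMM were all called lower with TPM, at log2 fold changes of -0.34 (Pxn) to -0.13 (Myl12a). Library size as the only scaling gave 20 higher and 10 lower members, beside 24.4% and 39.9% of all genes. Of the 31 called members, 13 higher and all 7 lower genes passed under every scaling and tool tried, and 20 higher genes kept their direction under all of them. FPKM values carried a shift of their own, as they summed to 482767 and 487207 over all genes with DMSO and to 546060 and 525448 with risperidone.

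**Figure D1:**
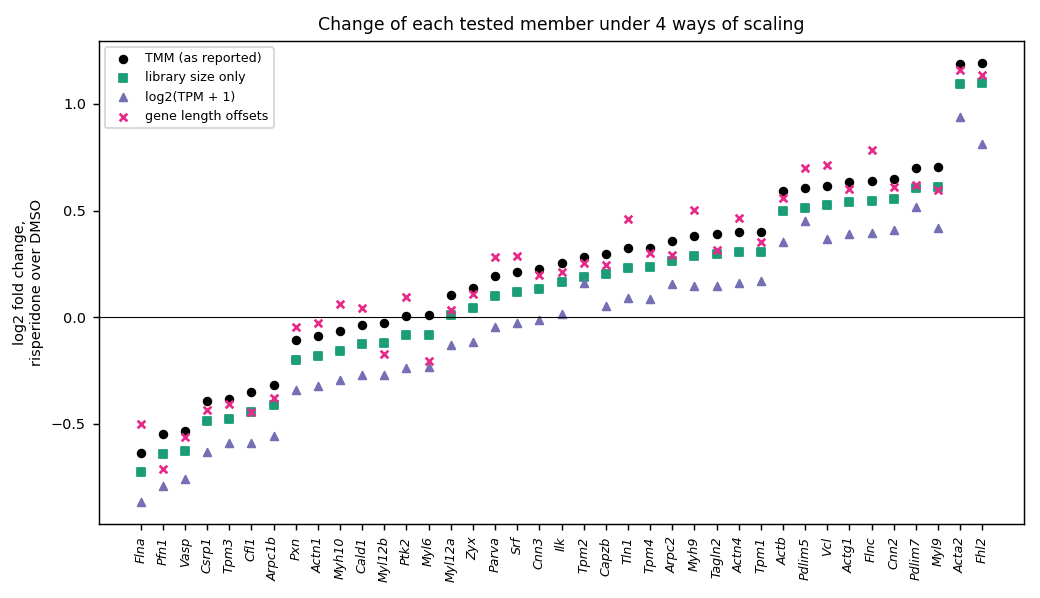
Log2 fold change (risperidone over DMSO) of each of the 39 tested genes, ordered by the reported value, under TMM scaling, library size only, log2(TPM + 1) and offsets for gene length. The 7 genes at the left were below 0 under all 4, while Cnn3, Zyx, Parva and Srf were above 0 with TMM and below 0 with TPM.

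CArG boxes were searched in the RefSeq promoter windows of build GRCm38.p6, which run from 250 bases before to 50 bases after each annotated start, on both strands. A window was found for 38 members, and 8 of them held at least 1 box (21.05%). Beside this stood 488 of 27025 genes with a window (1.81%) and 123 of 8329 tested genes (1.48%). The members were chosen for known roles, and many share SRF as a regulator, so the choice itself favours boxes among them. Of the members that rose, 6 of 22 with a window held a box, and of those that fell 0 of 7 did. Of those not called it was 1 of 6 (Myl6), and of those not tested 1 of 3 (Fhl1). These groups are small, and differences between them were not tested. The search took only the exact motif, CC, then 6 letters of A or T, then GG, and looser forms were not searched. Acta2 had a window but no such box. The box is the part in which the listed members are alike. Each is shown with the bases around it, printed 5′ to 3′ on the gene's strand with the box in capitals.
Myl6 (chr10:128493025-128493084, minus strand): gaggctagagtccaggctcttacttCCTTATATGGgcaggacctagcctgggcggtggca
Myl9 (chr2:156775278-156775337, plus strand): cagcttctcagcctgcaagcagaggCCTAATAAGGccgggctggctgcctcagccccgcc
Actg1 (chr11:120348551-120348610, minus strand): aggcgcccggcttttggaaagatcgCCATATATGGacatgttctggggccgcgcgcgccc
Cnn2 (chr10:79988519-79988578, plus strand): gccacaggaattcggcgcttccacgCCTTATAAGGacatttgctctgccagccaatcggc
Vcl (chr14:20929148-20929205, plus strand): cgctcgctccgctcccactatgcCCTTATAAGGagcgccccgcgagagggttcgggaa
Fhl1 (chrX:56779556-56779615, plus strand): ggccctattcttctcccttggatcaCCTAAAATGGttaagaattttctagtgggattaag
Fhl2 (chr1:43196823-43196882, minus strand): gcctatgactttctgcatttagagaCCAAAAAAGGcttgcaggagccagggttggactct
Fhl2 (chr1:43163958-43164017, minus strand): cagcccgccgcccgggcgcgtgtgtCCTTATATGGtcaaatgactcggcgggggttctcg
Srf (chr17:46556190-46556269, minus strand): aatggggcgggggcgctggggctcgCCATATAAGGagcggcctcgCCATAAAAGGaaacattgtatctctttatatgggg
The boxes started between 31 bases (the second start of Fhl2) and 227 bases (Vcl) before an annotated start, and Srf itself held 2 boxes, 82 and 62 bases before its start. A match is a description of these letters in this window, and no binding was measured. Tagln, Parva, Actb, Ptk2 and Pxn had no window.

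The actins and actin-binding genes included Actb, Actg1 and Cfl1, the members of highest level. Of 14 tested, 9 were higher, 4 were lower and 1 was not called, with a median log2 fold change of 0.33. All tested genes were 32.1% higher and 32.2% lower, and those of at least 50 FPKM were 53.3% higher and 22.3% lower. With TPM the group was 7 higher and 5 lower, and all tested genes were 15.0% and 51.7%. The cytoplasmic actins led the list. Actb (β-actin, NCBI Gene 11461, chromosome 5, 142903115 to 142907976 in GRCm38.p6) measured 865 and 817 FPKM with DMSO and 1200.2 and 1171 FPKM with risperidone. Actg1 (γ-actin, Gene 11465, chromosome 11, 120345687 to 120348495) measured 834 and 816 FPKM and 1167 and 1225 FPKM. Both risperidone libraries were above both DMSO libraries for each gene, and the log2 fold changes were 0.59 (standard error 0.0512) and 0.63 (0.0491). These genes are often used as loading references, and here they rose 1.51- and 1.55-fold. With TPM their log2 fold changes were smaller, at 0.35 and 0.39, and both were still called.

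The filamins, long proteins that tie crossing filaments into a mesh, moved in opposite directions. Flna (Gene 192176, chromosome X, 74223461 to 74249854) measured 104 and 96.9 FPKM with DMSO and 56.2 and 65.6 FPKM with risperidone. Flnc, the paralogue best known from muscle (Gene 68794, chromosome 6, 29433153 to 29461889), measured 37.3 and 33.2 FPKM and 49.5 and 53.2 FPKM. Neither gene overlapped between treatments. Flna fell by 0.63 on the log2 scale (standard error 0.07), and Flnc rose by 0.64 (0.0619). Flna therefore made up 73.7% and 74.5% of the summed FPKM of the pair with DMSO and 53.2% and 55.2% with risperidone, a difference of -19.9 percentage points in the means. This share lies within a library and does not depend on how libraries are scaled, and it was not tested.

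The calponins, which bind along the filament, differed by paralogue. Cnn2 measured 102 and 103 FPKM with DMSO and 153 and 148 FPKM with risperidone, a log2 fold change of 0.65 (standard error 0.0461) with no overlap. Cnn3 measured 80.9 and 81.7 FPKM and 88.5 and 89.4 FPKM, and its log2 fold change of 0.23 (0.0444) became -0.01 with TPM. Cnn2 rose from 55.8% and 55.9% to 63.3% and 62.4% of the summed calponin FPKM. Tagln2, the transgelin of non-muscle cells, measured 28.6 and 30.6 FPKM against 36.9 and 35.5 FPKM (log2 fold change 0.39, standard error 0.0614).

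The α-actinins crosslink filaments in bundles and at adhesions. Actn4 measured 125 and 121 FPKM with DMSO and 154 and 150.5 FPKM with risperidone and rose by 0.40 on the log2 scale (standard error 0.0482). Actn1 measured 91.8 and 92.9 FPKM and 81.8 and 81 FPKM and was not called, at a log2 fold change of -0.09 (adjusted p = 0.109, edgeR quasi-likelihood F-test, Benjamini-Hochberg adjusted), though it was called lower with library size as the only scaling (-0.18), at a mean of at least 5 FPKM (-0.11) and with limma on FPKM (-0.18). The pair shifted towards Actn4, as Actn4 made up 57.7% and 56.6% of their summed FPKM with DMSO and 65.3% and 65.0% with risperidone.

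Genes for the turnover of filaments split. Cfl1 (cofilin, which severs filaments) measured 854 and 904 FPKM with DMSO and 645 and 643 FPKM with risperidone, and Pfn1 (profilin, which loads actin monomers for growth) measured 419.8 and 433 FPKM and 276 and 268 FPKM. Both fell without overlap, with log2 fold changes of -0.35 (standard error 0.0497) and -0.55 (0.0467), and did so under each scaling tried, while their paralogues Cfl2 and Pfn2, of the list of actin assembly, were higher by 0.86 and 0.26 (0.61 and, not called, 0.02 with TPM). Among the members are 2 subunits of the Arp2/3 complex, which starts branches. Arpc2 measured 179.9 and 183 FPKM against 228 and 218 FPKM and rose (0.36, standard error 0.0474), and Arpc1b measured 159.7 and 156 FPKM against 121 and 116 FPKM and fell (-0.32, 0.0477). Of the complex's other subunits in the list of actin assembly, Actr2 and Arpc5l were higher by 0.16 and 0.20 (-0.07 and -0.03 with TPM), Arpc5 was lower at -0.33, and Actr3, Arpc1a, Arpc3 and Arpc4 were not called. Capzb, a subunit of the protein that caps fast-growing ends, measured 113 and 115 FPKM against 131 and 131 FPKM (log2 fold change 0.30, standard error 0.0447), and it was no longer called with TPM, at 0.05.

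**Figure D2:**
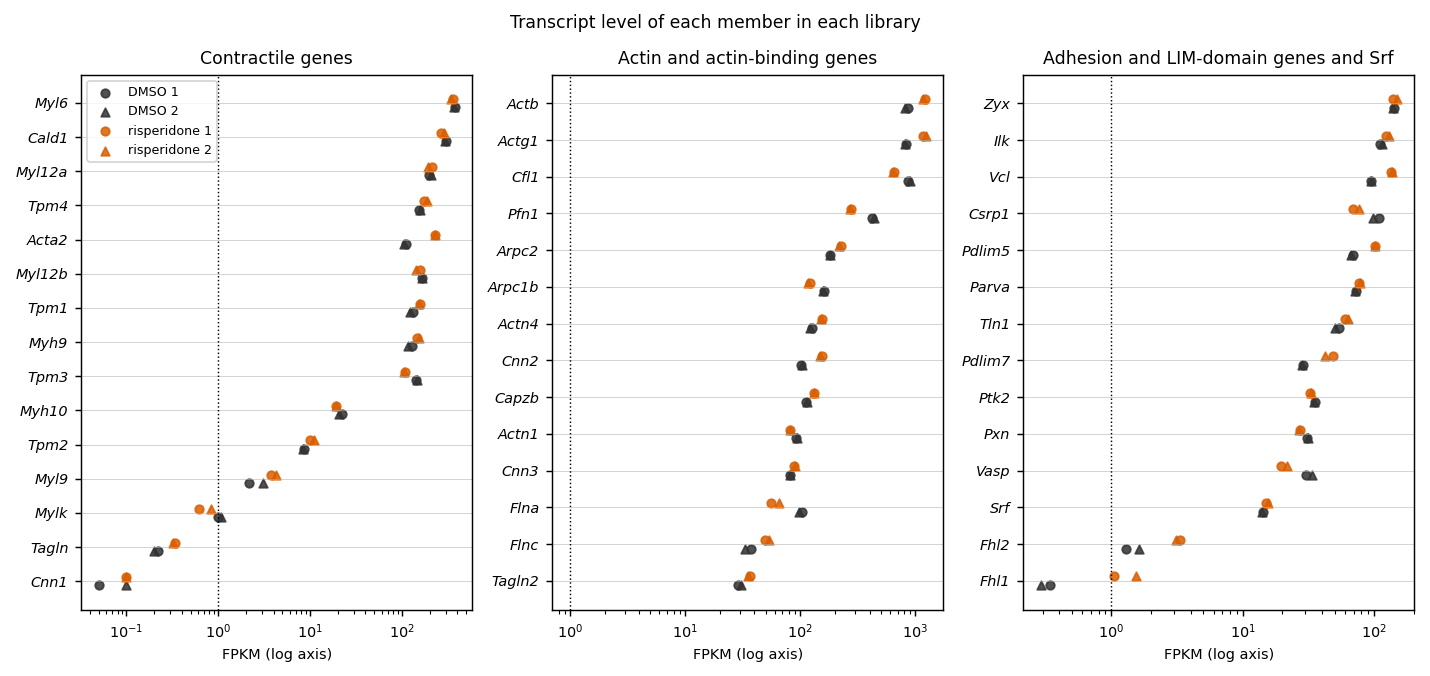
FPKM (log axis) of each of the 43 genes in each library, with DMSO in grey and risperidone in orange, circles for replicate 1 and triangles for replicate 2, and a dotted line at 1 FPKM. Acta2, Actb, Actg1, Vcl and Pdlim5 show both risperidone libraries to the right of both DMSO libraries, and Flna, Cfl1, Pfn1 and Tpm3 show them to the left.

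Of the 12 tested contractile genes, 6 rose, 1 fell and 5 were not called, with a median log2 fold change of 0.19. The share called, 58.3%, was below the 64.3% of all tested genes, and with TPM the split was 3 higher and 6 lower with a median of -0.02, beside 15.0% and 51.7% of all tested genes and their median of -0.22. The change stood out in Acta2 (smooth muscle α-actin, the actin of myofibroblasts and of smooth muscle, Gene 11475, chromosome 19, 34240336 to 34255585). It measured 111 and 104 FPKM in the DMSO libraries and 229 and 229 FPKM in the risperidone libraries. The groups did not overlap, at 108 ± 4.57 FPKM in the DMSO group against 229 ± 0.13 FPKM in the risperidone group (SD, n = 2). So small an SD was particular to FPKM, as TPM was 230 and 214 with DMSO and 419 and 435 with risperidone. The log2 fold change was 1.19 (standard error 0.0519, adjusted p = 3.37e-08, edgeR quasi-likelihood F-test, Benjamini-Hochberg adjusted). It ranged from 1.13 to 1.24 with each library left out. Its share of the 3 actins rose from 6.13% and 6.02% to 8.81% and 8.71%, so Actb and Actg1 remained the main actins.

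Tagln, Cnn1 and Mylk, which are also abundant in smooth muscle, were below the level tested. Tagln (SM22) measured 0.22 and 0.20 FPKM with DMSO and 0.34 and 0.32 FPKM with risperidone, and its counts of 4.72 to 8.02 were not whole, so some reads had been divided between genes. Cnn1 had 1 to 3 counts in a library. Mylk, the kinase that activates myosin light chains, measured 1 and 1.06 FPKM against 0.61 and 0.84 FPKM. With no filter on low values none of these 3 was called (log2 fold changes 0.66, 0.78 and -0.40, with adjusted p = 0.440, 0.590 and 0.137 by the edgeR quasi-likelihood F-test, Benjamini-Hochberg adjusted). Of 21 genes for the isoforms of striated and smooth muscle, 9 were in the table and all averaged under 1 FPKM, with sums of 1.49 to 1.98 FPKM a library.

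The tropomyosins, coiled coils that lie along the filament and set which proteins reach it, changed in composition. The 4 genes together measured 434 and 435 FPKM with DMSO and 450.3 and 461 FPKM with risperidone, but 898 and 893 TPM against 825 and 877 TPM, so the direction of the sum turned with the scaling. Tpm3 measured 141 and 148 FPKM with DMSO and 107 and 105 FPKM with risperidone and was the contractile gene that fell (-0.38, standard error 0.0468). Tpm1 measured 131 and 122 FPKM against 159 and 155 FPKM, and Tpm4 measured 153 and 157 FPKM against 174 and 189.9 FPKM. Both rose, by 0.40 (0.0499) and 0.33 (0.052), the latter lost as a call with TPM, at 0.09. Tpm3 went from 32.6% and 33.9% to 23.8% and 22.7% of the family, Tpm1 from 30.1% and 28.1% to 35.3% and 33.7%, and Tpm4 from 35.4% and 36.0% to 38.6% and 41.2%. Tpm2 was the minor member, at 8.50 and 8.36 FPKM against 9.92 and 11.1 FPKM, and its call (0.28, standard error 0.088) was lost without either DMSO library, without risperidone replicate 2, with library size only, with DESeq2 and with TPM.

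**Figure D3:**
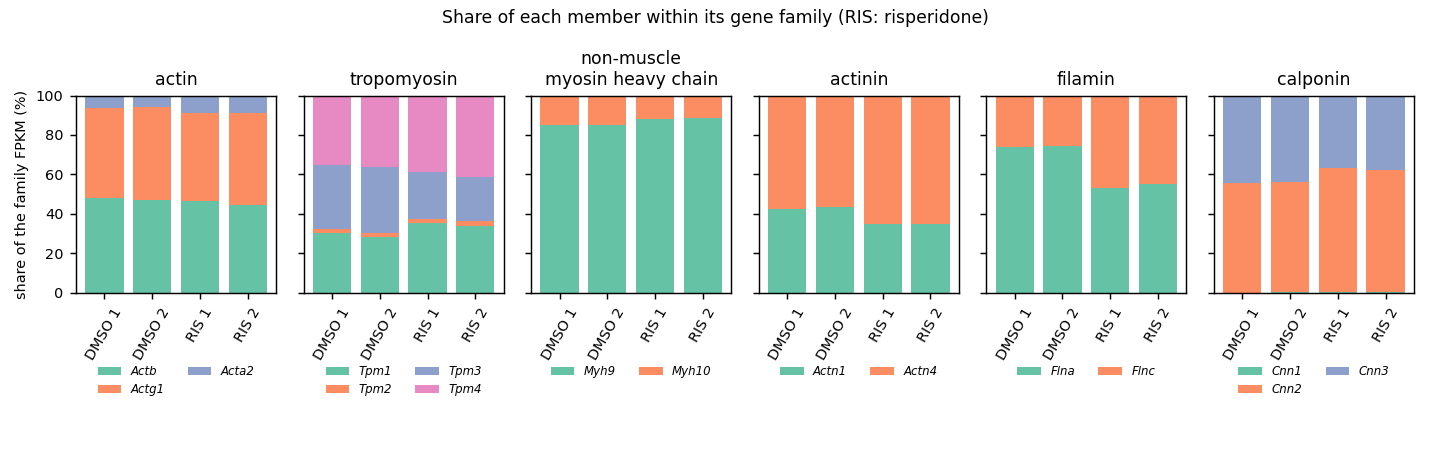
Share (%) of each gene in the summed FPKM of its family, in each of the 4 libraries, for actins, tropomyosins, non-muscle myosin heavy chains, α-actinins, filamins and calponins (RIS, risperidone). The filamin panel shows Flna going from 73.7% and 74.5% to 53.2% and 55.2%, and the tropomyosin panel shows the drop of Tpm3.

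Among the myosin genes, Myh9 (the heavy chain of non-muscle myosin IIA) rose. It measured 127 and 115 FPKM with DMSO and 144 and 152 FPKM with risperidone, a log2 fold change of 0.38 (standard error 0.058), which was not called with TPM, at 0.15. Myh10, the heavy chain of myosin IIB, measured 22.2 and 20.6 FPKM against 19.3 and 19.1 FPKM and was not called (-0.06, 0.051), though with library size only it was called lower, at -0.16. Myh9 thus went from 85.1% and 84.8% to 88.2% and 88.8% of the pair, with no overlap.

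The light chains of high level did not pass the test with TMM, though with length offsets Myl6 (-0.21) and Myl12b (-0.17) were called lower, and without risperidone replicate 2 Myl12a was called higher (0.15). Myl6, the essential light chain, measured 375 and 373 FPKM with DMSO and 359.6 and 345 FPKM with risperidone (log2 fold change 0.01, standard error 0.0463). Myl12a, a regulatory light chain, measured 197 and 207 FPKM against 213 and 195 FPKM (0.11, 0.0483), and its paralogue Myl12b measured 164 and 164 FPKM against 158 and 142 FPKM (-0.03, 0.0563). They lie side by side on chromosome 17 and their counts were not whole, so the division of reads between them is uncertain. Cald1 (caldesmon, which restrains myosin on the filament) measured 302 and 297 FPKM against 263 and 285 FPKM and was not called either (-0.03, 0.052). Myl9, the light chain typical of smooth muscle and a carrier of a CArG box, measured 2.16 and 3.08 FPKM against 3.72 and 4.29 FPKM and rose by 0.71 (0.242), from 34 and 47 to 58 and 66 counts. That call was lost without DMSO replicate 1 (0.47), without risperidone replicate 2 (0.61), with no filter on low values (0.70) and with DESeq2 (0.71).

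**Figure D4:**
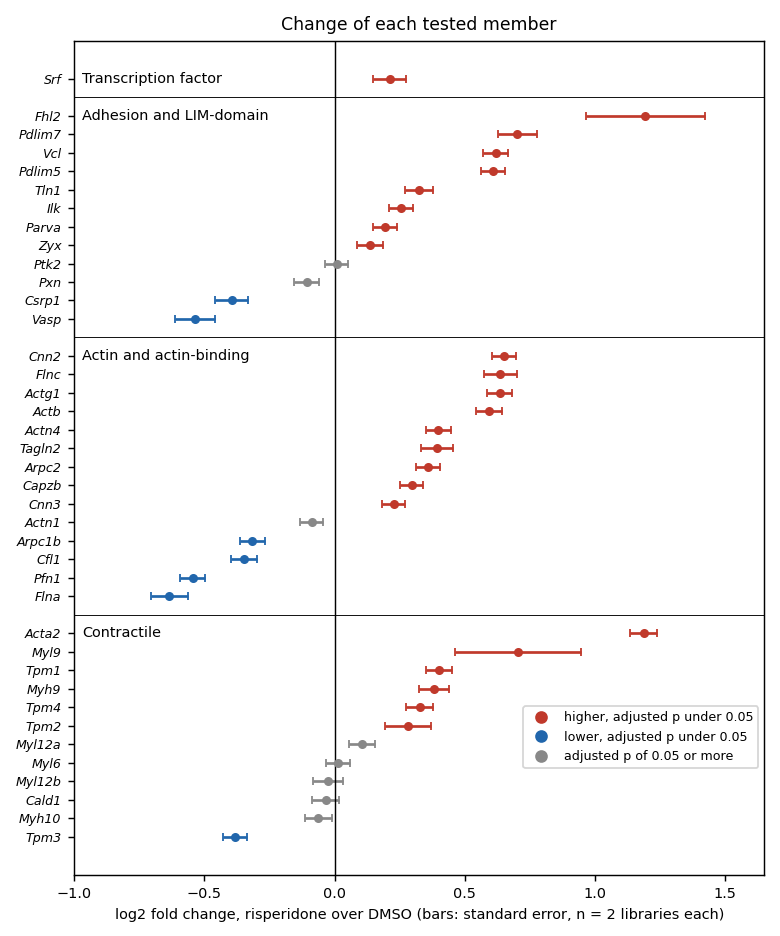
Log2 fold change (risperidone over DMSO, bars show the standard error, 2 libraries per treatment) of the 39 tested genes by group, red for higher, blue for lower and grey for genes at an adjusted p of 0.05 or more. Acta2 and Fhl2 lie above 1, Flna lies lowest at -0.63, and Cnn3, Zyx, Parva and Srf turn below 0 with TPM.

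Of the 12 tested adhesion and LIM-domain genes, 8 rose, 2 fell and 2 were not called, with a median log2 fold change of 0.23, beside 32.1% of all tested genes higher and 32.2% lower. With TPM, 4 were higher and 4 lower with a median of -0.01, beside 15.0% and 51.7% of all tested genes and their median of -0.22. Vcl (vinculin, which couples talin to actin under tension, Gene 22330, chromosome 14, 20929383 to 21033676) measured 94.7 and 95 FPKM with DMSO and 133 and 137 FPKM with risperidone. Replicates were close and the groups did not overlap, and the log2 fold change was 0.62 (standard error 0.0468, adjusted p = 1.07e-06, edgeR quasi-likelihood F-test, Benjamini-Hochberg adjusted), between 0.61 and 0.63 with each library left out. Its partner Tln1 (talin, which activates integrins) measured 54.3 and 50.5 FPKM against 60.2 and 62.96 FPKM, a smaller rise of 0.32 (0.053) that was not called with TPM, at 0.09.

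Both PDZ and LIM domain genes among the members, whose proteins sit on stress fibres through α-actinin or tropomyosin, rose. Pdlim5 measured 68.4 and 66.7 FPKM with DMSO and 102 and 102 FPKM with risperidone, and Pdlim7 measured 28.8 and 28.2 FPKM and 48.3 and 42.5 FPKM. The log2 fold changes were 0.61 (standard error 0.0463) and 0.70 (0.075), and their shares of the pair overlapped between treatments. Fhl2, a LIM-only cofactor of transcription, was low and measured 1.28 and 1.63 FPKM against 3.30 and 3.12 FPKM, from 30 and 37 counts to 77 and 67. Its log2 fold change of 1.19 (0.229) was close to that of Acta2, which was the larger with TPM (0.94 against 0.81) and with length offsets (1.16 against 1.13), with a range of 1.03 to 1.37 when each library was left out. Fhl1, its paralogue, had 12 and 10 counts with DMSO and 38 and 55 with risperidone. With no filter on low values, Fhl1 was called higher by 2.16 on the log2 scale (standard error 0.331, adjusted p = 0.00521, edgeR quasi-likelihood F-test, Benjamini-Hochberg adjusted), where 37.6% of 16021 genes were called.

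The ILK complex links integrin tails to actin. Ilk measured 112 and 114 FPKM with DMSO and 123 and 129 FPKM with risperidone (0.26, standard error 0.0461, and 0.01 and not called with TPM). Parva (α-parvin) measured 73.2 and 71.6 FPKM against 77.2 and 77.9 FPKM (0.19, 0.0457), and its call was lost with library size only (0.10) and limma on FPKM (0.098 and 0.099 at pseudocounts of 1 and 0.1), and its value was -0.04 with TPM. Zyx (zyxin, which gathers at strained filaments) measured 142 and 139 FPKM against 139 and 148 FPKM, which overlapped in FPKM, and its call (0.14, 0.0483) had the highest adjusted p of the 24, and it was lost when any library but risperidone replicate 1 was left out. It was also lost at a mean of at least 5 FPKM (0.11), with no filter on low values (0.13), with the replicate block (0.14), with library size only (0.043) and with limma on FPKM (0.028), and stood at -0.11 with TPM. The changes of Parva and Zyx were smaller than the shift that TPM brought to all genes.

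Vasp and Csrp1 were the adhesion members that fell. Vasp, which extends filaments at their growing ends, measured 30.04 and 33.3 FPKM with DMSO and 19.4 and 21.5 FPKM with risperidone (-0.54, standard error 0.0768). Csrp1, a LIM protein on stress fibres, measured 109 and 97.7 FPKM against 69.6 and 77.2 FPKM (-0.39, 0.0638). Neither overlapped between treatments. Of the members, Pxn and Ptk2 did not pass the test. Pxn (paxillin, a scaffold) measured 30.8 and 31.5 FPKM against 27.1 and 27 FPKM (-0.11, 0.0481), and it was called lower with library size only (-0.20), at a mean of at least 5 FPKM (-0.13) and with limma on FPKM (-0.20). Ptk2 (focal adhesion kinase) measured 35.3 and 35 FPKM against 32.7 and 32.9 FPKM (0.01, 0.0444).

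Srf measured 14.2 and 13.98 FPKM with DMSO and 14.96 and 15.5 FPKM with risperidone. The groups did not overlap, and the log2 fold change was 0.21 (standard error 0.0621, adjusted p = 0.0117, edgeR quasi-likelihood F-test, Benjamini-Hochberg adjusted). That call was lost with library size only (0.12), DESeq2 (0.21) and limma on FPKM (0.11), and the value was -0.03 with TPM. Of 11 tested genes for SRF cofactors and other SRF targets, 9 were higher and 0 lower, with 2 not called and a median of 0.55, beside 32.1% of all tested genes higher and 32.2% lower. Ctgf and Ankrd1 are counted among the 9 and in the median. Both reached the level tested only through the risperidone libraries, so to be tested they had to differ. The list was also written with earlier results of these data known. Ctgf measured 0.59 and 0.53 FPKM against 1.79 and 1.90 FPKM, and Ankrd1 0.75 and 0.58 FPKM against 2 and 1.64 FPKM. The largest rise was that of Cyr61, a matricellular protein also controlled by YAP, from 17.7 and 17.5 FPKM to 77.2 and 70.2 FPKM (2.16, standard error 0.0673). Thbs1 (thrombospondin 1) went from 43.4 and 38.3 FPKM to 59.1 and 71.1 FPKM (0.77, 0.0822), and Lima1, which bundles filaments, from 39.1 and 37.7 FPKM to 53.3 and 51.8 FPKM (0.55, 0.0478). With TPM, 7 of these genes, Ctgf and Ankrd1 included, were higher and 1 was lower, beside 15.0% and 51.7% of all tested genes.

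Other genes of the pathway, from lists written from general knowledge with earlier results of these data known, did not all share this split. Of 36 genes for actin assembly, 15 were higher and 10 lower with a median of 0.07. The 69.4% called lay near the 64.3% of all tested genes, which were 32.1% higher and 32.2% lower. With TPM 6 were higher and 20 lower, beside 15.0% and 51.7% of all genes. Among them Fscn1 (fascin, which packs filaments into tight bundles) went from 39.5 and 39.2 FPKM to 93.04 and 84.8 FPKM (1.27, standard error 0.0561). Ezr (ezrin, which ties filaments to the membrane) went from 27.1 and 24.8 FPKM to 57.6 and 56.03 FPKM (1.22, 0.055). Marcks, which crosslinks filaments at the membrane, fell from 31.6 and 31.8 FPKM to 14.2 and 14.6 FPKM (-1.04, 0.0521).

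Of 32 tested genes of the adhesion site, 17 were higher and 6 lower, with a median of 0.28, beside the same 32.1% and 32.2% of all tested genes. With DESeq2, 17 were higher and 4 lower. With TPM, 10 were higher and 10 lower with a median of 0.03, beside 15.0% and 51.7% of all tested genes. Fblim1 (migfilin, which joins filamin to the plaque) rose from 5.47 and 4.97 FPKM to 14.99 and 13.98 FPKM (1.58, standard error 0.0729). Pdlim1, of the same family as Pdlim5, rose from 7 and 8.17 FPKM to 15.5 and 14.8 FPKM (1.10, 0.115), and Parvb (β-parvin) rose from 6.29 and 7.64 FPKM to 13.4 and 13.1 FPKM (1.05, 0.0686).

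**Figure D5:**
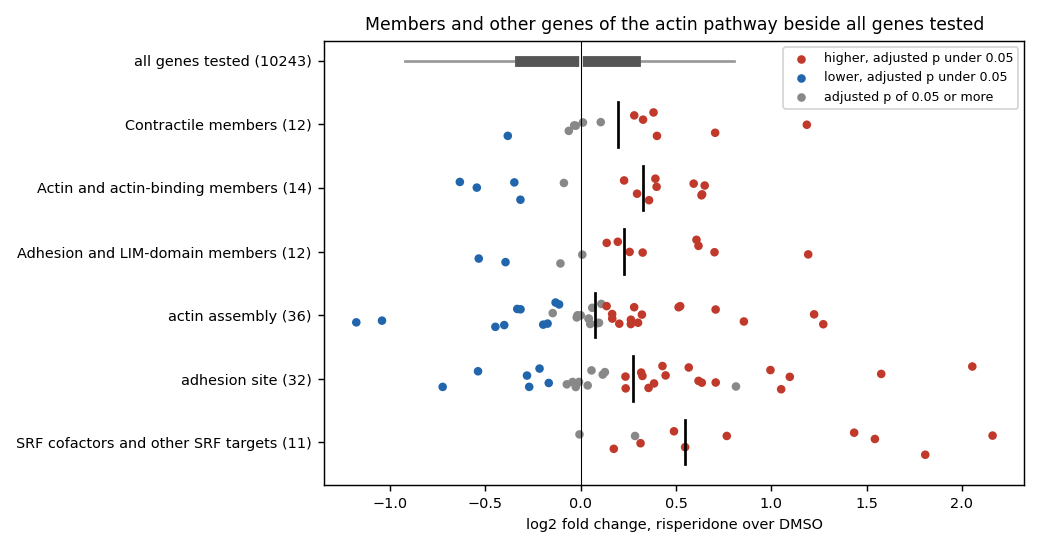
Log2 fold change (risperidone over DMSO) of single genes in each list, with the number tested in brackets, black bars at the list medians, and, for all 10243 genes tested, the middle 50% (thick) and 90% (thin) of values. The medians of the 3 member groups lay between 0.19 and 0.33 and that of the SRF list at 0.55, beside 0.00 for all genes. With TPM they were -0.02 (contractile), 0.10 (actin-binding), -0.01 (adhesion) and 0.31 (SRF list) beside -0.22. The SRF list includes Ctgf and Ankrd1, which reached the level tested only through the risperidone libraries.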

How the data were processed

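Transcripts of differentiated 3T3-L1 cells were sequenced on MGISEQ-2000 after DMSO or risperidone treatment. The deposited table gave, per gene and library, an expected count (estimated count), FPKM and TPM. The FPKM values were calculated by the authors after cleaning and mapping of the reads, and the deposited TPM values rescale them to one sum per library. Per the labels, the submitters' processing notes name Bowtie2, RSEM, DESeq2 and GRCm38.p6, with no versions or roles. The kit's strand setting is not given in the sources used here.

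The expected counts were rounded. The 10243 genes whose mean reached 1 FPKM were compared using edgeR 4.0.16 under R 4.3.3 (TMM factors 1.03, 1.03, 0.963 and 0.973, quasi-likelihood F-test, two-sided, Benjamini-Hochberg adjustment, threshold 0.05, biological coefficient of variation 0.0468). A standard error is the size of the log2 fold change over the square root of F. Counts of the members were whole apart from Myl12a, Myl12b and Tagln. The depth was 15883712 to 16374119 counts per library. One further gene list and 1 marker gene are not reported here. The members and lists were chosen with earlier results of these data known. Every member was named, and of each other list up to 3 called genes with the largest changes at a mean of at least 5 FPKM. Outside that rule, Cfl2, Pfn2 and the other Arp2/3 subunits were named beside their member relatives. Ctgf and Ankrd1 were named for their low level. Alternatives were RLE factors, library size only, DESeq2 1.42.0, limma 3.58.1 on log2(FPKM + 1), log2(FPKM + 0.1) and log2(TPM + 1), other filters, minimum folds, a term for the replicate number, length offsets and each library left out. On data simulated for this comparison over 10243 genes, edgeR recovered 86% of 100 genes changed by 0.5 and 99% of 100 changed by 1 on the log2 scale, with 4 false calls. With a trend with gene length added to the simulation, it made 395 false calls without length offsets and 3 with them. The genes given a change, 100 of each size, were few beside the 64.3% of tested genes called in the data. How many false calls the scaling of libraries could bring was not tested. In the data, Spearman's correlation of the log2 fold change with gene length across genes was -0.168, and 0.0116 with the offsets. Figures were drawn with matplotlib 3.10.9 and tables read with pandas 2.3.3.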

Additional observations from a re-analysis of the deposited data

How the results depend on the processing

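No direction of a called member changed with RLE factors, DESeq2, either filter, the block, length offsets or any library left out. Beside the minimum sizes of change, which lower the counts by construction, scaling to TPM moved the members' counts most. With limma on log2(TPM + 1), 14 members were higher and 15 lower (contractile 3 and 6, adhesion 4 and 4), as were 6 and 20 genes of actin assembly and 10 and 10 of the adhesion site, with 1 SRF gene lower, beside 1536 and 5292 of all genes. With library size only 2 contractile genes were lower, and with length offsets 3 were. A mean of at least 5 FPKM left 5 SRF genes higher, as 3 of the 9 were no longer tested and 1 other lost its call. With a minimum size of 0.5 on the log2 scale, the counts higher and lower were 10 and 3 for all members, 2 and 0 for contractile, 4 and 2 for actin-binding and 4 and 1 for adhesion genes, and at 1 they were 2 and 0, 1 and 0, 0 and 0, and 1 and 0. With each library left out, 21 to 24 members were higher and 7 lower, and 3 to 6 adhesion site genes were lower, 3 of them without DMSO replicate 1.

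Values that changed sign were small. With TPM these were Cnn3 (-0.013), Zyx (-0.11), Parva (-0.044), Srf (-0.028), Myl12a (-0.13), Myl6 (-0.23) and Ptk2 (-0.24). Myl6 and Ptk2 were also below 0 with library size only (-0.082 and -0.085), at a mean of at least 5 FPKM (-0.013 and -0.017) and with limma on FPKM (-0.088 for Myl6 with either pseudocount, -0.096 and -0.098 for Ptk2). Length offsets gave -0.21 for Myl6, 0.064 for Myh10 and 0.042 for Cald1. With each library left out, Myl6 ranged from -0.022 to 0.045, Cald1 from -0.085 to 0.016 and Myl12b from -0.11 to 0.051. The cause was not tested.

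The replicate numbers were not shown to pair the libraries, as deviations of libraries with the same number correlated at -0.105 over 2 pairs. With the replicate block, 23 members were higher and 7 lower, and the pairing changed only the call of Zyx among the members (0.14, adjusted p = 0.0548 by the edgeR quasi-likelihood F-test, Benjamini-Hochberg adjusted). The crossed pairing, added after seeing the data, gave 25 and 7.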

Other observations

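The members together took 1.38% and 1.35% of all counts with DMSO and 1.51% and 1.55% with risperidone, and the groups did not overlap. The 14 actins and actin-binding genes held 0.722% and 0.706% against 0.800% and 0.814%, the contractile genes 0.395% and 0.383% against 0.416% and 0.429%, and the adhesion genes 0.259% and 0.254% against 0.293% and 0.301%. These shares are of counts, so long transcripts weigh more than short ones. In the whole table, Actb ranked 75, Actg1 77 and Cfl1 107 by mean FPKM.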
